A study of Mus musculus with 9 samples.

Results

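H3R2me2a peaks of Igf2bp2 knockout cells that were found in both libraries but lay on no high wild-type peak are described here. They are the peaks of Igf2bp2KO replicate 1 on chromosomes 1 to 19 that shared at least 1 bp with a peak of Igf2bp2KO replicate 2 and with no peak of pileup 9 or more in either wild-type (WT) list. In the WT and Prmt6KO lists the pileup is the number of fragments stacked at the highest point of a peak, its summit. The Igf2bp2KO lists give a scaled pileup, which is converted to fragments below. Of 912 peaks of Igf2bp2KO replicate 1, 519 overlapped a replicate 2 peak and 36 met the whole rule, among 1548240 peaks in the 6 lists. The 36 regions were 3.95% of the 912 peaks and 6.94% of the 519. The regions were thus chosen by peak overlap and WT pileup, and these shares come from the rule itself.

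The series holds chromatin immunoprecipitation sequencing (ChIP-seq) with an H3R2me2a antibody from mouse bone marrow cells, called leukemia cells in the design text. The cells were cultured with IL3, IL6 and SCF and were wild type, without Prmt6 (Prmt6KO) or without Igf2bp2 (Igf2bp2KO), with 2 antibody libraries for each genotype. The 3 input libraries were not analysed here. The labels give no age, strain, treatment or deletion design, and name no animal or culture for any library, so the spread between libraries of a genotype may be technical. The files hold no expression values, so the labelled cell type was not checked against marker genes.

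H3R2me2a is the asymmetric dimethylation of arginine 2 of histone H3. The methyltransferase PRMT6 writes it, and it is known to counter the methylation of the neighbouring lysine that marks active promoters. IGF2BP2 is an RNA-binding protein that reads m6A-modified transcripts and stabilises them, and it is not known as an enzyme of chromatin. Most of the regions lay among the Speer genes, a rodent family of similar copies that encode glutamate-rich proteins of the germ cells in the testis.

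The copies are shown by the promoters of 3 of them, since the similarity of neighbouring sequences bears on where short reads can be placed. Each window holds 300 bases, 250 before and 50 after the start of the gene, 5′ to 3′ on the gene's own strand, from RefSeq (GRCm38.p6, the assembly of mm10). Capitals mark bases that did not match Speer4d in a pairwise alignment, and a run of capitals at the 5′ end is sequence upstream of the Speer4d window.
Speer4d, chr5:15618849-15619148, plus strand: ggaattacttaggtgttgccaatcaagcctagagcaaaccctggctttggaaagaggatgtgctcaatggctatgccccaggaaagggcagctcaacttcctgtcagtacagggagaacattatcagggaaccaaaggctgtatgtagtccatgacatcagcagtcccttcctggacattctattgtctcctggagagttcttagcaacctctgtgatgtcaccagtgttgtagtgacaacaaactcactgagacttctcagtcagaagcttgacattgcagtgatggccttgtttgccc
Gm21083, chr5:15577043-15577342, plus strand: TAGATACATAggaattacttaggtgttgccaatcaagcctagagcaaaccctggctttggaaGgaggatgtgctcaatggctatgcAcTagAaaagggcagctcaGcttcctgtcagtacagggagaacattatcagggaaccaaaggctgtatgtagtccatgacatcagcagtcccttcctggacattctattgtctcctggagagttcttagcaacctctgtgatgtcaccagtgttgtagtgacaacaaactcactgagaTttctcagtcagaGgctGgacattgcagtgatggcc
Speer4c, chr5:15714222-15714521, minus strand: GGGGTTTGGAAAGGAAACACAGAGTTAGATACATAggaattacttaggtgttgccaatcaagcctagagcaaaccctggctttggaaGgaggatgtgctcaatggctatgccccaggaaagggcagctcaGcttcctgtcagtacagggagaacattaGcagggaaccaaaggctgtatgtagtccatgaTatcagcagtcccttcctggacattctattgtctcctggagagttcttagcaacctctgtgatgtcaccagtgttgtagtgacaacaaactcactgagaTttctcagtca
Gm21083, a predicted gene, differed from Speer4d at 18 bases (94% identity), and Speer4c at 40 bases (86.7% identity). The 9 protein-coding promoters in and within 50 kb of the stretch of chromosome 5 that held the regions made 36 pairs with identities of 76.0% to 98.7% and a median of 88.8%. The 30 pairs with a non-coding gene had 47.3% to 56.7%. The sources used here do not give how reads that match several copies were treated, so the copy to which a peak belongs is uncertain. None of the 36 regions overlapped a promoter window of the RefSeq table, and the share of all tiles that do was not computed. Peaks of any height covered 6 and 4 of the 9 coding promoters in Igf2bp2KO replicates 1 and 2, 8 and 1 in WT, and 9 and 8 in Prmt6KO. The Speer4d promoter had no Igf2bp2KO peak, a summit of 5 fragments in WT replicate 1 and in Prmt6KO replicate 1, and no peak in the other libraries.

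The lists differed greatly in length and depth. The Igf2bp2KO lists held 1028 and 1261 peaks, the WT lists 165304 and 134492, and the Prmt6KO lists 814517 and 431638. The deposited Igf2bp2KO pileups are steps of 0.277 and 0.302, and division by these steps gives fragments. Each list used a single background for all its peaks, which was 1.45 and 1.33 fragments in Igf2bp2KO, 1.46 and 1.44 in WT, and 0.736 and 1.21 in Prmt6KO. The lowest summits listed were 8 and 7 fragments in Igf2bp2KO, 4 in both WT lists, and 2 and 3 in Prmt6KO. A pileup of 9 was 6.16 and 6.26 times the background in WT, 12.2 and 7.44 times in Prmt6KO. The WT libraries were unlike on the sex chromosomes. Relative to chromosomes 1 to 19, WT replicate 1 had 0.182 times the peak density on X and 0.376 times on Y, against 1.20 and 0.00876 times in WT replicate 2. Igf2bp2KO had 0.774 and 1.24 times on X and 0.0297 and 0.0482 times on Y, the latter from 1 and 2 peaks. Prmt6KO had 0.964 and 1.23 times on X and 0.0154 and 0.0171 times on Y. WT replicate 1 thus stood apart from all other libraries on both chromosomes.

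Of the 36 regions, 30 (83.3%) lay in 1 stretch of chromosome 5, chr5:14916891-15704663 (788 kb), and 6 lay elsewhere. The stretch runs from the start of its first region to the end of its last. Its bounds were thus fitted to the regions, and the shares inside and outside it depend on them. The stretch also held 24.2% of all Igf2bp2KO replicate 1 peaks and 33.7% of the replicated ones. Within it 17.1% of 175 replicated peaks met the rule, and outside it 1.74% of 344 did. Replication itself was more frequent in the stretch, at 79.2% of 221 replicate 1 peaks against 49.8% of 691 elsewhere. Igf2bp2KO replicate 1 and 2 peaks touched 50.2% and 53.0% of the 500 bp tiles of the stretch, so an overlap between the libraries is frequent there whatever the position. The libraries carried unequal weight in the rule. Without Igf2bp2KO replicate 2 it found 154 regions, of which 37.0% were in the stretch, and without Igf2bp2KO replicate 1 it found 272, with 20.6%. Without WT replicate 1 it found 190 regions, 80.5% of them in the stretch, and without WT replicate 2 it found 63, with 47.6%.

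**Figure D1:**
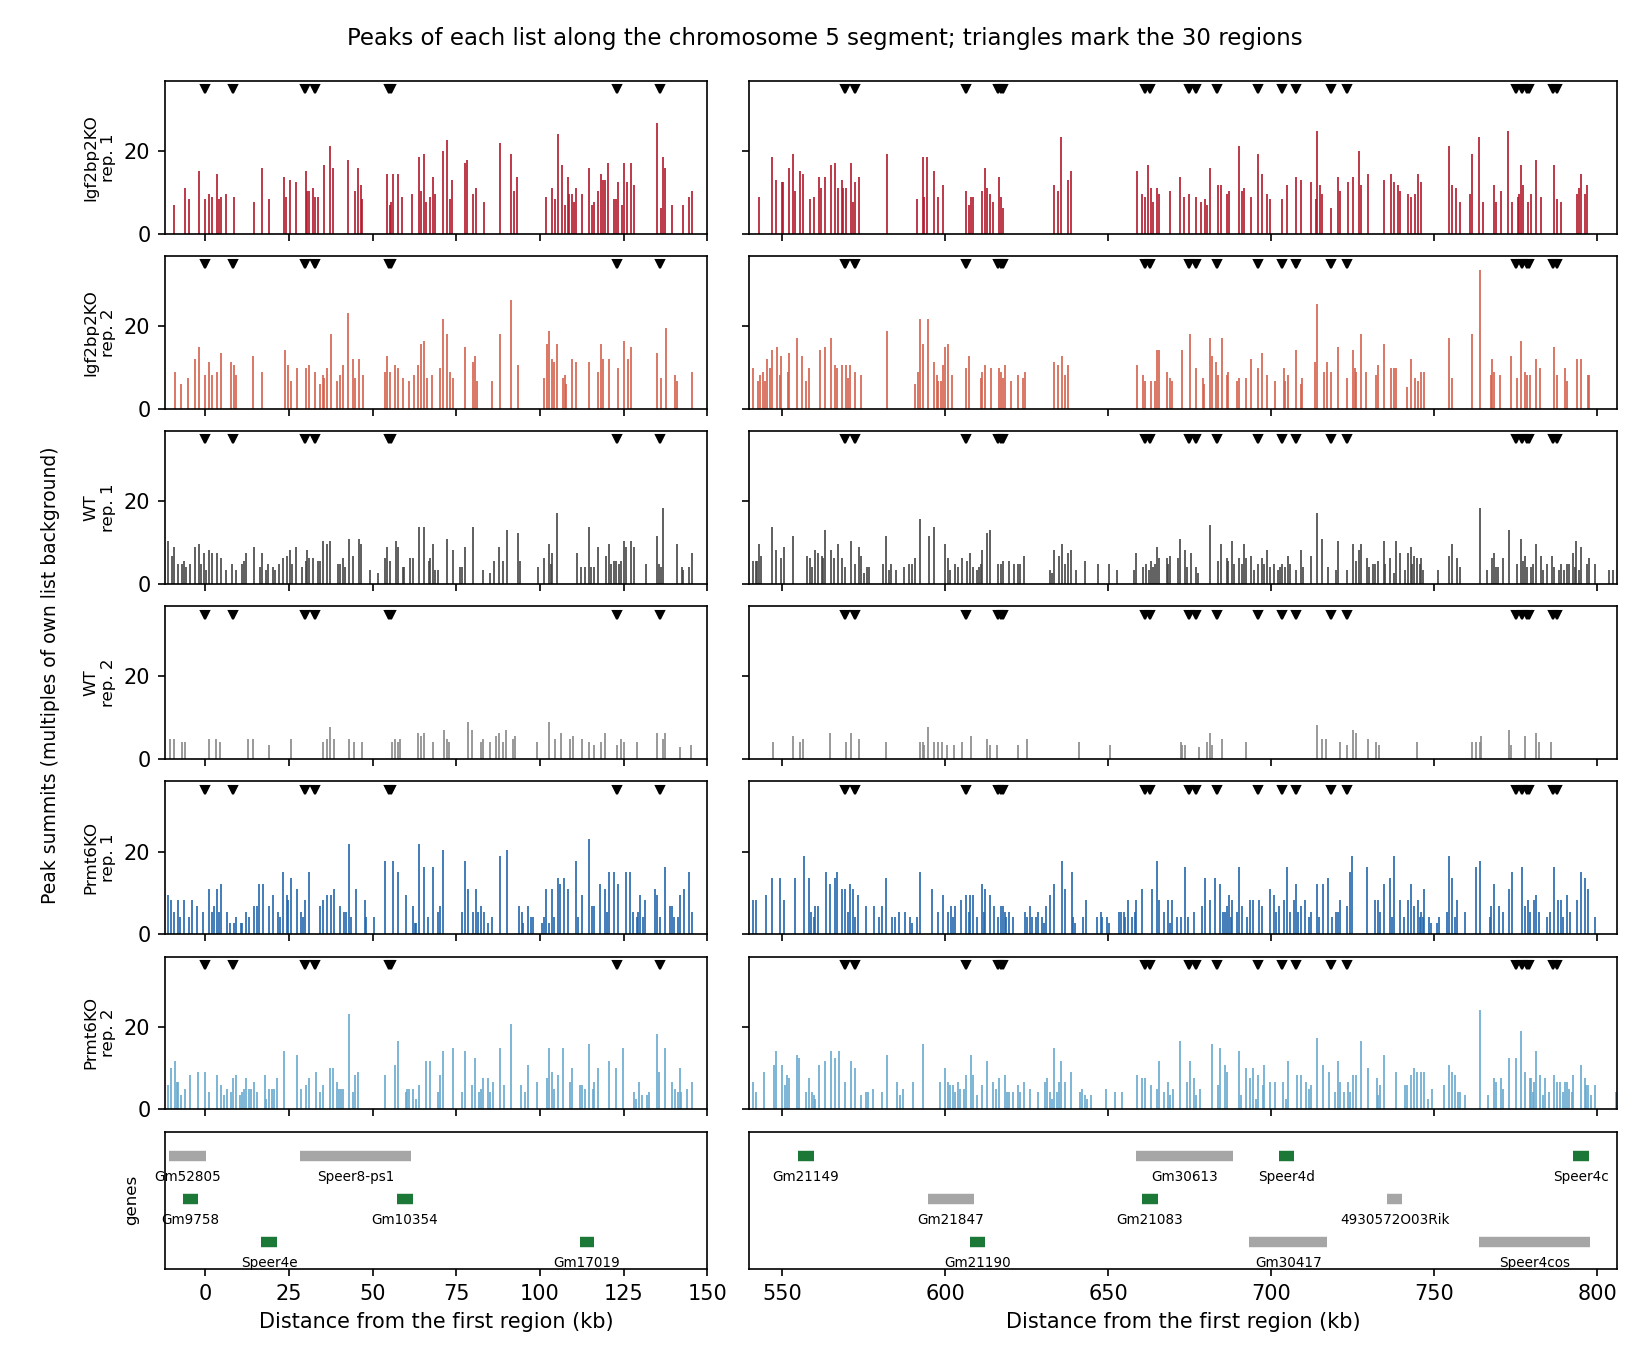
Peak summits along the chromosome 5 stretch in the 6 lists (vertical axis, multiples of the background of each list), against the distance in kb from the first region. Triangles mark the 30 regions, green bars protein-coding genes and grey bars other genes, and the panels leave out most of the 395 kb stretch without peaks. Peaks are dense in all lists, and WT replicate 2 has the fewest and lowest.

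The stretch was crowded with peaks in every genotype. Leaving out a gap of 395 kb with no peak in any list, it held 56.3 peaks per 100 kb in both Igf2bp2KO libraries, 74.1 and 28.8 in WT replicates 1 and 2, and 80.7 and 71.8 in Prmt6KO. The rest of chromosome 5 held 0.0135 and 0.0176 per 100 kb in Igf2bp2KO, 6.27 and 4.80 in WT, and 31.5 and 15.9 in Prmt6KO. The density was therefore higher in the stretch, with its bounds fitted to the regions, in all 6 libraries, by 2.56 to 11.8 times in WT and Prmt6KO. In Igf2bp2KO, 20 and 26 peaks in all lay on the rest of the chromosome. Because a list has 1 background for all its peaks, more of the mark and more copies of the sequence cannot be told apart in these values.

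Heights over the 36 regions were as follows, with 0 written where a list has no peak. Igf2bp2KO replicate 1 had 9 to 28 fragments at the summit with a median of 13.5, and replicate 2 had 8 to 24 with a median of 12. WT replicate 1 had 0 to 8 with a median of 7, and WT replicate 2 had 0 to 7 with a median of 0. Prmt6KO replicate 1 had 0 to 13 with a median of 6, and replicate 2 had 0 to 23 with a median of 9. As multiples of the background of each list, the medians were 9.30 and 9.0 in Igf2bp2KO, 4.79 and 0 in WT, and 8.15 and 7.44 in Prmt6KO. All regions were higher in both Igf2bp2KO libraries than in either WT library, from a lowest Igf2bp2KO multiple of 6.0 to a highest WT multiple of 5.48, and this gap is set by the rule and the lowest summits listed. Fragments alone are not comparable between lists of unequal background, so heights are compared between genotypes in these multiples. The Prmt6KO libraries, which the rule did not use, overlapped the Igf2bp2KO range.

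**Figure D2:**
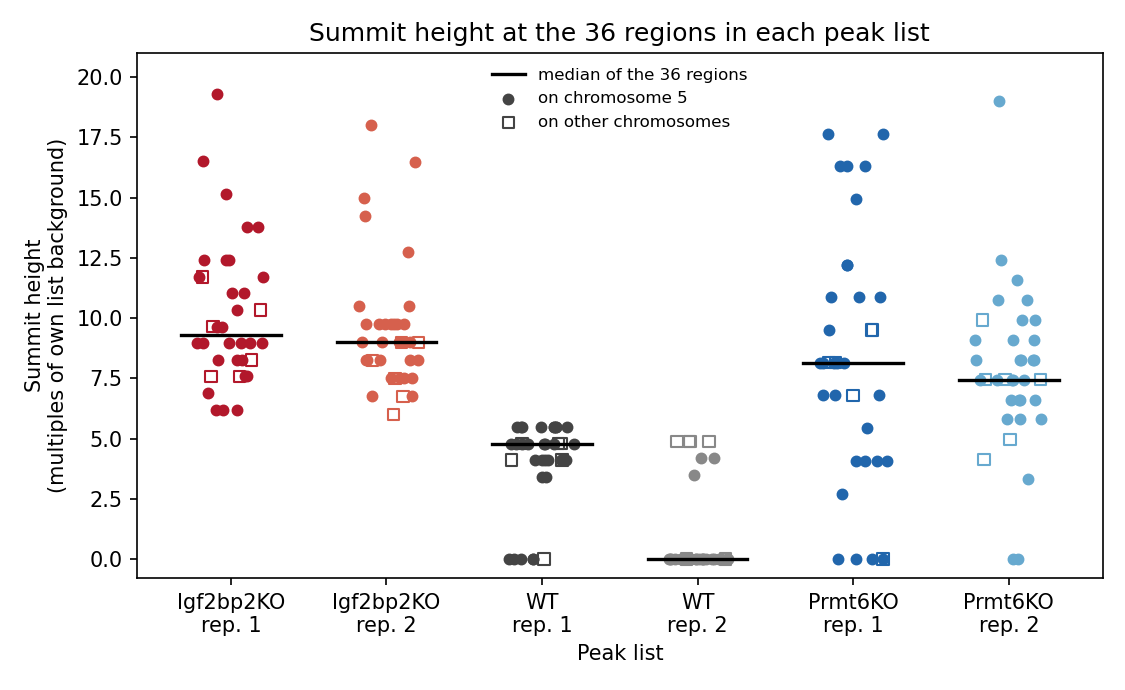
Summit height at the 36 regions in each of the 6 lists, in multiples of the background of that list; 0 stands for no peak. Circles are the 30 regions of the chromosome 5 stretch, squares the 6 others, and bars the medians, which are 9.30 and 9.0 in Igf2bp2KO, 4.79 and 0 in WT, and 8.15 and 7.44 in Prmt6KO.

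The regions were 200 to 651 bp long with a median of 353.5 bp. They shared 42 to 487 bp with the replicate 2 peak, with a median of 212.5 bp, or 76.2% of the length of the region. The summits of the Igf2bp2KO libraries lay a median of 69.5 bp apart, at most 751 bp, and within 200 bp in 28 of 36. Replicate 1 had the higher summit in 23 regions and replicate 2 in 10, and 3 were equal. These were low peaks: 3 regions reached a q of 0.05 or below in replicate 1, 3 in replicate 2 and 1 in both. A summit of 13 fragments has an exact Poisson 95% interval of 6.92 to 22.2, which covers counting error only. At 31 regions a WT list had a peak. There the higher WT multiple fell inside the interval of the Igf2bp2KO replicate 1 summit at 12 regions, of the replicate 2 summit at 17, of both at 9, and below both at 11. These counts are a description and no test, since the rule limited WT height and the lowest summits listed limited Igf2bp2KO. The WT summit was given no interval in these counts, and a summit of 8 fragments has one of 3.45 to 15.8.

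Lower WT peaks were present at most of the regions, and nearly all came from replicate 1. WT replicate 1 had a peak at 30 of 36 (83.3%, Wilson 95% interval 68.1 to 92.1), against 5.07% of the 500 bp tiles of chromosomes 1 to 19 and 75.0% of the tiles of the chromosome 5 stretch. WT replicate 2 had a peak at 7 of 36 (19.4%, 9.75 to 35), against 3.91% of all tiles and 24.7% of those in the stretch. Among the 30 regions of the stretch the counts were 25 (83.3%) and 3 (10.0%), and among the 6 elsewhere 5 and 4. Both WT lists had a peak at 6 regions, replicate 1 alone at 24, replicate 2 alone at 1 and neither at 5. By the rule none of these was high. Peaks of 9 fragments or more covered 50.1% of the tiles of the stretch in WT replicate 1 and 5.61% in replicate 2, against 0.196% and 0.112% of all tiles.

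High WT peaks were close by. A WT replicate 1 peak of 9 fragments or more lay 26 to 64720 bp from the edge of a region, with a median of 570.5 bp, and within 5 kb of 35 regions (1.76% of all tiles). For WT replicate 2 the distance was 121 to 25035 bp with a median of 4599 bp, and 18 regions were within 5 kb (0.852% of all tiles). All 36 were within 5 kb of a high peak in either list, which held for 2.41% of all tiles and for 97.7% of the tiles of the stretch. The regions thus lay beside high WT peaks, and in the stretch almost every position lies that close to one. Just inside and just outside the threshold the Igf2bp2KO and Prmt6KO medians were alike, though many peaks lay there. The 9 regions whose highest WT peak had 8 fragments had medians of 15 and 12 fragments in Igf2bp2KO and 8 and 10 in Prmt6KO. The 32 replicated peaks just outside, whose highest WT peak had 9, had medians of 14.5 and 12 in Igf2bp2KO and 8 and 11 in Prmt6KO. A WT replicate 2 peak lay at 1 of the 9 just inside (11.1%, 1.99 to 43.5) and at 14 of the 32 just outside (43.8%, 28.2 to 60.7). The sets were defined by WT height, and 8 of these 14 peaks reached the threshold themselves. This difference is thus partly built in by the rule.

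Every region overlapped a peak of at least 1 Prmt6KO library, made from cells without the gene of the enzyme that writes the mark. Prmt6KO replicate 1 had a peak at 31 of 36 (86.1%, 71.3 to 93.9), against 23.8% of the tiles of chromosomes 1 to 19. Prmt6KO replicate 2 had a peak at 34 of 36 (94.4%, 81.9 to 98.5), against 12.5% of those tiles. Among all 912 Igf2bp2KO replicate 1 peaks the shares were higher, at 95.2% and 96.1%, so such an overlap is usual for these peaks. Both lists had one at 29 regions, replicate 1 alone at 2 and replicate 2 alone at 5. In the chromosome 5 stretch the shares were near those of the surroundings: 26 of 30 regions (86.7%) against 85.6% of tiles in replicate 1, and 28 of 30 (93.3%) against 85.5% in replicate 2. Of the 6 regions elsewhere, 5 and 6 had a peak. All 6 lists had a peak at 5 regions. The shares of tiles that meet at least 1 Prmt6KO list, both of them, or all 6 lists were not computed.

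A height of 9 fragments was 12.2 and 7.44 times background in Prmt6KO replicates 1 and 2. Prmt6KO peaks of 9 fragments or more lay at 8 regions in replicate 1 (22.2%, 11.7 to 38.1) and at 24 in replicate 2 (66.7%, 50.3 to 79.8), against 0.0338% and 0.0998% of all tiles. Among all 912 Igf2bp2KO replicate 1 peaks, which include those on high WT peaks, such Prmt6KO peaks were more frequent, at 41.9% and 72.7%. In the stretch they were at 26.7% and 66.7% of the 30 regions, against 32.6% and 55.7% of its tiles. The 27 unreplicated Igf2bp2KO replicate 1 peaks of the stretch that were also outside high WT peaks had such Prmt6KO peaks in 18.5% (8.18 to 36.7) and 48.1% (30.7 to 66.0). The intervals of the 30 regions were 14.2 to 44.4 and 48.8 to 80.8. In each Prmt6KO list 4 regions met a highest peak shared with another region, so the regions are not independent. The intervals therefore understate the spread, and the difference between the sets was not tested. In multiples of background, both Prmt6KO libraries were above both WT libraries at 25 of 36 regions. Both Igf2bp2KO libraries were above both Prmt6KO libraries at 16 regions, and both Prmt6KO libraries above both Igf2bp2KO libraries at 4. The other regions had overlapping libraries. These counts are partly built in, since the rule limited WT height and required a listed peak in both Igf2bp2KO libraries but not in Prmt6KO.

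All 8 regions with high peaks in both Prmt6KO libraries were on chromosome 5. The pair at chr5:14971823-14972246 and chr5:14972419-14972673, in the pseudogene Speer8-ps1, lay 172 bp apart and met the same Prmt6KO peaks of 13 and 13 fragments and the same WT replicate 1 peak of 8. They held 10 and 11 fragments in Igf2bp2KO replicate 1, 17 and 12 in replicate 2, and the second also held 6 in WT replicate 2. These Prmt6KO summits were at 17.7 and 10.8 times background, and are 1 observation rather than 2. Another Speer8-ps1 region, chr5:14949717-14949963, held 13 and 12 fragments in Igf2bp2KO, 8 and 0 in WT, and 11 and 11 in Prmt6KO. The other members of this set are described with their clusters.

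**Figure D3:**
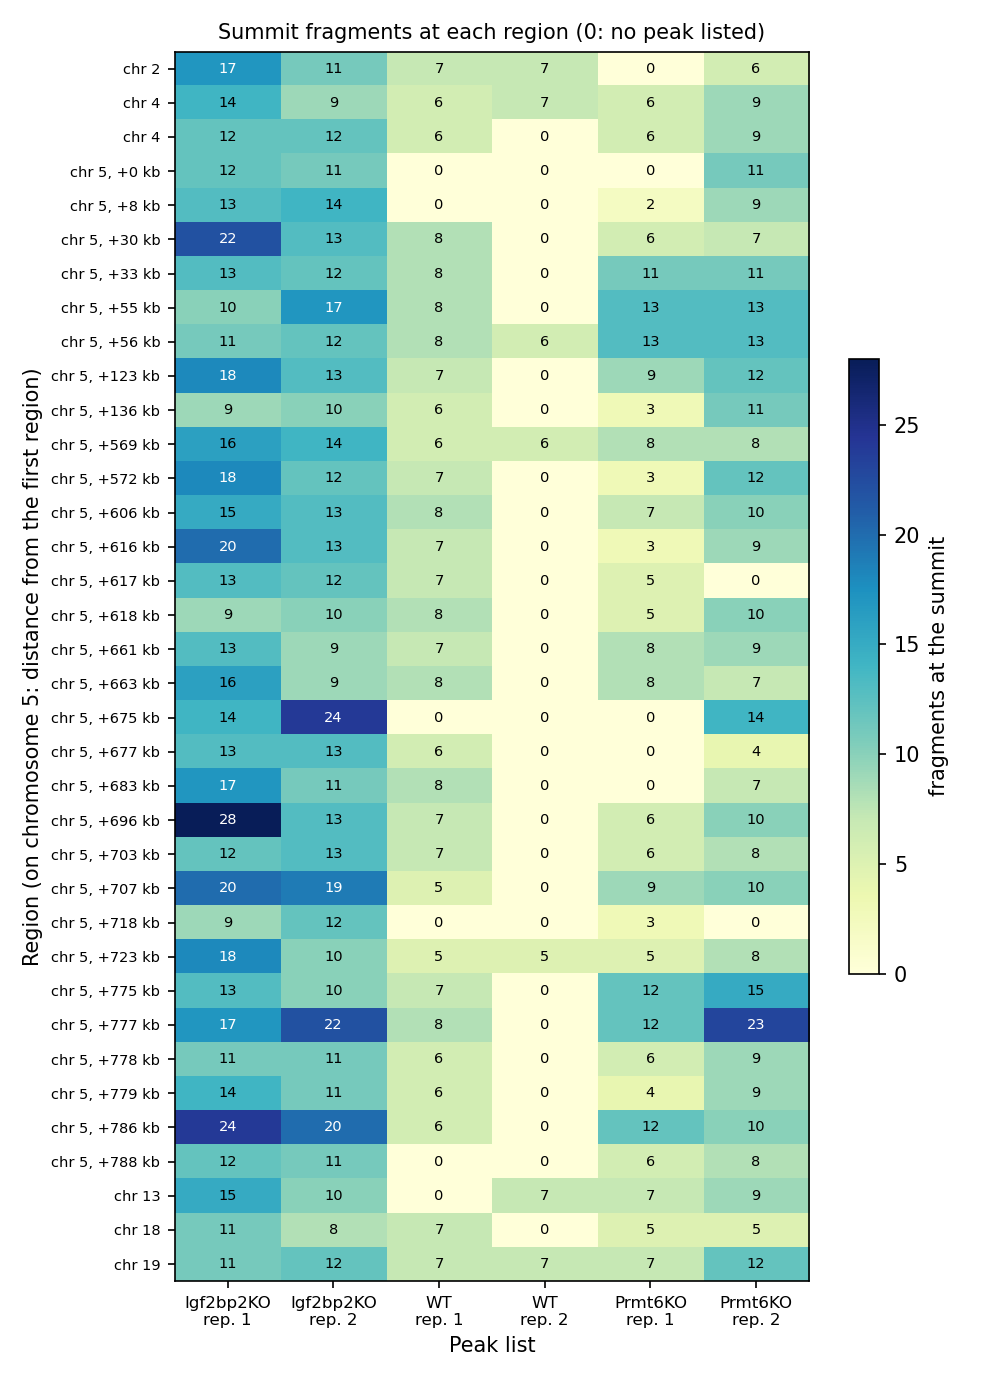
Fragments at the summit of the highest overlapping peak at each of the 36 regions (rows, in genome order) in each of the 6 lists (columns), with 0 for no peak. The WT replicate 2 column holds 7 values above 0, while the Prmt6KO columns hold 31 and 34.

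Joined across gaps of at most 50 kb, 28 of the 36 regions fell into 3 clusters of 3 or more, all on chromosome 5, and a pair lay between the first and second. The first cluster, chr5:14916891-14972673 (55.8 kb), held 6 regions among 26 replicated Igf2bp2KO peaks. It spans Speer4e, a coding member of the family, most of Speer8-ps1, and the end of the lncRNA Gm52805. The region with the third highest Igf2bp2KO replicate 1 summit of all 36 lay here, at chr5:14946852-14947098 in Speer8-ps1. Its summits were 22 and 13 fragments in Igf2bp2KO, 8 and 0 in WT, and 6 and 7 in Prmt6KO. The Igf2bp2KO libraries were the highest there, and replicate 1 stood 9 fragments above replicate 2. The first region, chr5:14916891-14917093 at the end of Gm52805, held 12 and 11 fragments in Igf2bp2KO, no peak in either WT list or in Prmt6KO replicate 1, and 11 in Prmt6KO replicate 2. The next, chr5:14925289-14925711, between genes, held 13 and 14 in Igf2bp2KO, no WT peak, and 2 and 9 in Prmt6KO. At both, Prmt6KO replicate 2 was close to Igf2bp2KO and Prmt6KO replicate 1 was low.

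The pair, chr5:15040081-15040367 and chr5:15052827-15053188, lay in a span of 13.1 kb beyond the coding gene Gm17019. The first held 18 and 13 fragments in Igf2bp2KO, 7 and 0 in WT, and 9 and 12 in Prmt6KO, and is one of the 8 with high peaks in both Prmt6KO libraries. The second held 9 and 10 in Igf2bp2KO, 6 and 0 in WT, and 3 and 11 in Prmt6KO.

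The second cluster, chr5:15486249-15640424 (154 kb), held 16 regions among 55 replicated peaks, and spans the lncRNA genes Gm21847, Gm30613 and Gm30417 and the coding genes Gm21190, Gm21083 and Speer4d. The highest Igf2bp2KO replicate 1 summit of the 36 lay at chr5:15612729-15613158 in Gm30417, with 28 and 13 fragments in Igf2bp2KO, 7 and 0 in WT, and 6 and 10 in Prmt6KO. The highest replicate 2 summit lay at chr5:15591699-15591919 in Gm30613, with 14 and 24 in Igf2bp2KO, no WT peak, and 0 and 14 in Prmt6KO. These extremes were each high in 1 Igf2bp2KO library and near the median in the other. A more even region lay 493 bp beyond Speer4d at chr5:15624357-15624845 in Gm30417, with 20 and 19 fragments in Igf2bp2KO, 5 and 0 in WT, and 9 and 10 in Prmt6KO. The authors' fold enrichment was 4.67 and 4.80 there. The region inside Speer4d, chr5:15620194-15620844, was the longest and held 12 and 13 in Igf2bp2KO, 7 and 0 in WT, and 6 and 8 in Prmt6KO.

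Of the 16 regions of this cluster, 14 had a WT replicate 1 peak and 2 had a WT replicate 2 peak. In Gm21083, whose promoter is shown above, the regions at chr5:15578183-15578628 and chr5:15579836-15580259 held 13 and 16 fragments in Igf2bp2KO replicate 1 and 9 each in replicate 2. They held 7 and 8 in WT replicate 1, none in WT replicate 2, 8 each in Prmt6KO replicate 1, and 9 and 7 in Prmt6KO replicate 2. Igf2bp2KO replicate 2 was at 6.75 times its background at both, below Prmt6KO replicate 1 at 10.9, while Prmt6KO replicate 2 was at 7.44 and 5.79. The region between genes at chr5:15533111-15533473 held 20 and 13 in Igf2bp2KO, 7 and 0 in WT, and 3 and 9 in Prmt6KO. The first of the cluster, chr5:15486249-15486695, held 16 and 14 in Igf2bp2KO, 6 in both WT libraries and 8 in both Prmt6KO libraries. In multiples of background, Prmt6KO replicate 1, at 10.9, lay between the Igf2bp2KO libraries at 11.02 and 10.5, and Prmt6KO replicate 2 was at 6.62. The region at chr5:15635224-15635573 held 9 and 12 in Igf2bp2KO, no WT peak, and 3 and 0 in Prmt6KO. It and chr5:15534002-15534201, with 13 and 12 in Igf2bp2KO, 7 and 0 in WT, and 5 and 0 in Prmt6KO, were the 2 regions without a Prmt6KO replicate 2 peak.

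The remaining high Igf2bp2KO replicate 1 summits of this cluster were at chr5:15489131-15489456, with 18 and 12 fragments in Igf2bp2KO, 7 and 0 in WT, and 3 and 12 in Prmt6KO, and at 2 more. The region chr5:15640049-15640424 held 18 and 10 in Igf2bp2KO, 5 in both WT libraries, and 5 and 8 in Prmt6KO. The region chr5:15600323-15600540 in Gm30613 held 17 and 11 in Igf2bp2KO, 8 and 0 in WT, and 0 and 7 in Prmt6KO. The Prmt6KO libraries were at 4.07 and 9.93, 6.79 and 6.62, and 0 and 5.79 times background at these 3 regions. Igf2bp2KO was at 12.4 and 9.0, 12.4 and 7.5, and 11.7 and 8.25. All Prmt6KO values were below Igf2bp2KO replicate 1, for whose high summits the regions were named. At the first, Prmt6KO replicate 2 was above Igf2bp2KO replicate 2. In Gm21847 the region chr5:15523173-15523455 held 15 and 13 in Igf2bp2KO, 8 and 0 in WT, and 7 and 10 in Prmt6KO.

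The third cluster, chr5:15691956-15704663 (12.7 kb), held 6 regions among 10 replicated peaks, all in Speer4cos, a transcribed pseudogene that covers the coding gene Speer4c. The region with the largest lower fold enrichment of the Igf2bp2KO libraries lay here, at chr5:15703246-15703812. It held 24 and 20 fragments in Igf2bp2KO, 6 and 0 in WT, and 12 and 10 in Prmt6KO, with the authors' fold enrichment at 5.46 and 5.02, and was the single region with a q of 0.05 or below in both Igf2bp2KO libraries. Scaled to the background, these were 16.5 and 14.99 in Igf2bp2KO, 4.11 and 0 in WT, and 16.3 and 8.27 in Prmt6KO, so Prmt6KO replicate 1 lay between the Igf2bp2KO libraries. At chr5:15693890-15694167 the values were 17 and 22 in Igf2bp2KO, 8 and 0 in WT, and 12 and 23 in Prmt6KO. At chr5:15691956-15692481 they were 13 and 10 in Igf2bp2KO, 7 and 0 in WT, and 12 and 15 in Prmt6KO. These 2 regions met the same Prmt6KO replicate 1 peak. In multiples of background, Prmt6KO was at 16.3 and 19.03 against 11.7 and 16.5 in Igf2bp2KO at the former region. It was at 16.3 and 12.4 against 8.95 and 7.5 at the latter, where both Prmt6KO libraries were thus above both Igf2bp2KO libraries. The last region, chr5:15704464-15704663, held 12 and 11 in Igf2bp2KO, no WT peak, and 6 and 8 in Prmt6KO.

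The 30 regions of the stretch had lower median heights than its other replicated Igf2bp2KO peaks, with wide overlap between the sets. The other 145 replicated peaks of the stretch all lay on a high WT replicate 1 peak, and 22 also on a high WT replicate 2 peak. The medians of the 30 regions were 13.5 and 12 fragments in Igf2bp2KO against 19 and 16 for the 145, which is 0.711 and 0.75 of their height, and the 145 went down to 10 and 8 fragments while the regions reached 28 and 24. In WT replicate 1 they were 7 against 14, or 0.5 of the height, and in WT replicate 2 both medians were 0. In Prmt6KO they were 6 and 9.5 against 9 and 14, or 0.667 and 0.679. The WT replicate 1 difference is set by the rule, while the Prmt6KO lists were not used by it. They were shorter, with a median of 356 bp against 509 bp, and a longer peak meets other peaks more easily. Prmt6KO peaks of 9 fragments or more lay at 26.7% and 66.7% of the 30 regions and at 61.4% and 87.6% of the 145. These differences are descriptions of 2 libraries a genotype, for which an exact permutation p cannot fall under 0.33, and were not tested.

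**Figure D4:**
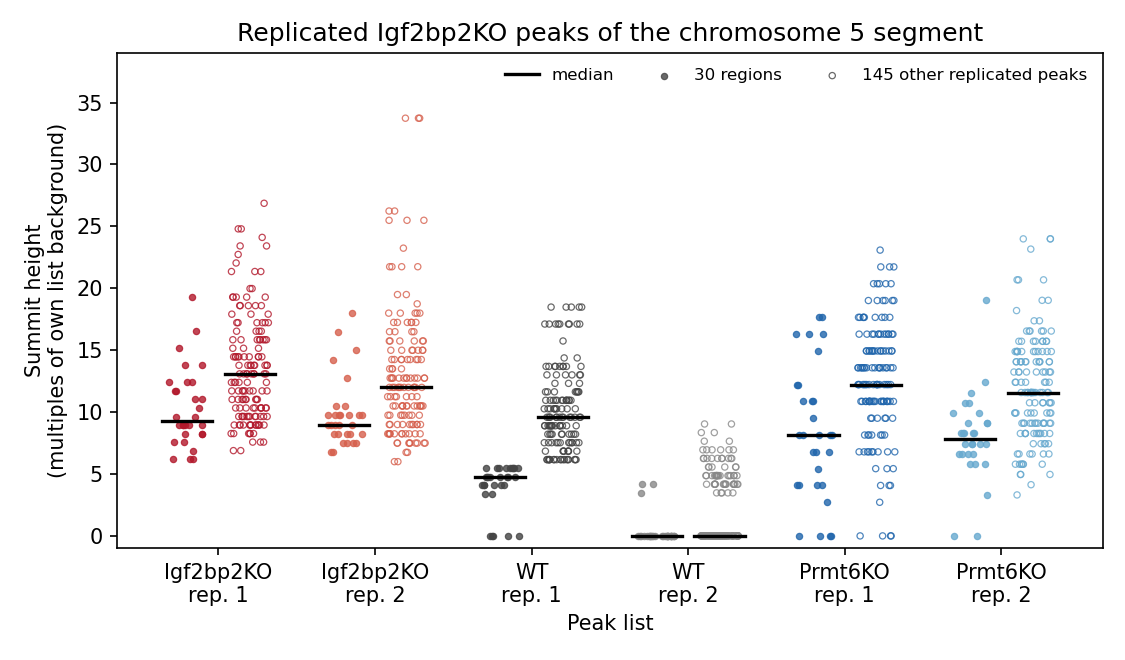
Summit height of the 30 regions (filled) and of the 145 other replicated Igf2bp2KO peaks of the chromosome 5 stretch (open) in each list, in multiples of the background of that list, with bars at the medians. The regions sit lower in both Prmt6KO lists, with medians of 8.15 and 7.86 against 12.2 and 11.6.

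The 6 regions on other chromosomes each stood alone. At chr4:147347253-147347609, in the zinc finger gene Zfp978, the summits were 14 and 9 fragments in Igf2bp2KO, 6 and 7 in WT, and 6 and 9 in Prmt6KO. At chr4:147646669-147646916, 4161 bp from the zinc finger gene Zfp979, they were 12 and 12 in Igf2bp2KO, 6 and 0 in WT, and 6 and 9 in Prmt6KO. Prmt6KO was at 8.15 and 7.44 times background at both. Igf2bp2KO was at 9.64 and 6.75 at the former and 8.27 and 9.0 at the latter. At chr13:119494855-119495450, in the gene of the transmembrane protein Tmem267, they were 15 and 10 in Igf2bp2KO, 0 and 7 in WT, and 7 and 9 in Prmt6KO, and this was the single region with a peak in WT replicate 2 alone. At chr19:39259856-39260060, in the cytochrome P450 pseudogene Cyp2c53-ps, they were 11 and 12 in Igf2bp2KO, 7 and 7 in WT, and 7 and 12 in Prmt6KO. In multiples of background, both Igf2bp2KO libraries were above both Prmt6KO libraries beside Zfp979, though replicate 1 of each was close, and not in Zfp978 or Tmem267. In Cyp2c53-ps both Prmt6KO libraries, at 9.50 and 9.93, were above both Igf2bp2KO libraries, at 7.58 and 9.0. At chr2:23943394-23943842, 59069 bp from Hnmt, the gene of a histamine-degrading enzyme, they were 17 and 11 in Igf2bp2KO, 7 and 7 in WT, and 0 and 6 in Prmt6KO. The peaks of the Igf2bp2KO libraries shared 42 bp there, the least of all regions. Igf2bp2KO was at 11.7 and 8.25 times background there, above Prmt6KO at 0 and 4.96. At chr18:50972861-50973166, 144732 bp from the nearest coding gene Prr16, they were 11 and 8 in Igf2bp2KO, 7 and 0 in WT, and 5 and 5 in Prmt6KO. In multiples of background the libraries overlapped there, at 7.58 and 6.0 in Igf2bp2KO and 6.79 and 4.14 in Prmt6KO.

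By gene, 23 of the 36 regions overlapped a gene body, against 50% of all tiles and 38.7% of the tiles of the stretch. The gene was protein-coding for 5 regions (41.3% of all tiles), a lncRNA for 10 (9.13%) and a pseudogene for 11 (1.33%), and a region can overlap more than 1. In the chromosome 5 stretch, 20 of the 30 regions overlapped a gene. The gene there was protein-coding for 3 regions (9.30% of the tiles of the stretch), a lncRNA for 10 (17.8%) and a pseudogene for 10 (16.1%). These differences were not tested. Within 1 kb lay 11 genes. Speer4cos had 6 regions of 17 replicated Igf2bp2KO peaks in its body, Gm30613 5 of 15, Speer8-ps1 4 of 19 and Gm30417 3 of 12. Gm21083 had 2 of 3, and Speer4d had 1 of 2 and another within 1 kb. Gm21847 had 1 of 7, Gm52805 1 of 3, Zfp978 1 of 10, Tmem267 1 of 10 and Cyp2c53-ps 1 of 1. In the stretch the nearest coding gene was a median of 7.49 kb away and at most 19.8 kb. Of 33 gene families sought by the start or end of the symbol, 29 had no region within 1 kb. Among these 29 the prefix Hist matched no gene of the RefSeq table, so it could hold no region. Speer had 12 (0.0107% of all tiles and 19.4% of those in the stretch), and genes named Gm with a number had 10 (10.2% and 25.9%). The zinc finger (Zfp) and cytochrome P450 (Cyp) families had 1 each (0.610% and 0.145% of all tiles). The Speer and Gm counts were all in the stretch, so they mainly give its location. None of the regions lay within 50 kb of Prmt6, Igf2bp2 or Mfsd2a, a lipid transporter gene named in the title of the series. None lay within 50 kb of the 30 blood and marrow genes sought, such as Kit, Myb, Hoxa9, Meis1 and Cd34. The share of all tiles near these genes was not computed. With 30 of the 36 regions in the stretch, few other places could lie near them, so these absences say little.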

How the data were processed

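The 6 H3R2me2a antibody libraries each had 1 peak list, called per library and not on pooled replicates. Per the submitters' processing notes, the tools included the aligner HISAT2, the peak caller MACS2 2.1.0, Trim Galore, bcl2fastq 2.17 and bedtools, on build mm10. Their settings are not given in the sources used. Each deposited peak carried its summit pileup, a coverage signal, its fold enrichment, a ratio of signal to background, and the −log10 of the p-value and q-value of the authors' peak calling, per the file headers. These scores are the authors' and describe peaks within their own list. In every list, fold enrichment equalled pileup plus 1 over background plus 1 with 1 background for 100% of peaks. No local or input background is visible in these values. The total read number of each library is unknown, and the background in fragments stands in for depth.

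Groups were taken from the sample titles. At each region the highest overlapping peak of each list was read (at least 1 bp shared), and its pileup was divided by the value of 1 fragment and by the background. Genes were those of the RefSeq table of GRCm38.p6, which gives no exons, so exonic and intronic positions were not separated. Clusters joined regions across gaps of at most 50 kb. Shares of 500 bp tiles of chromosomes 1 to 19, or of the chromosome 5 stretch without its gap, give the background. Tiles are longer than most regions and so meet peaks more easily. Wilson and exact Poisson intervals are at 95% and cover counting error only. Reads without molecular identifiers are not independent molecules, and neighbouring regions are not independent of each other. No test was run, since the rule used the Igf2bp2KO and WT lists and 2 libraries a genotype allow no exact permutation p under 0.33.

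Named in the text were every cluster of 5 or more regions, the 10 with the highest pileup in Igf2bp2KO replicate 1 (11 with ties) and the 10 with the largest lower fold enrichment. Also named were those with Prmt6KO pileup of 9 or more in both libraries, those at the edge of the WT threshold as a group, and the genes within 1 kb. Other regions were named after their values were seen, to cover the regions outside the chromosome 5 stretch and those without WT or Prmt6KO peaks. The regions and gene lists were chosen with earlier results of these data known. Alternatives changed the overlap, the library that gives the peaks, the WT and Prmt6KO thresholds, the q, the chromosomes, the gap and the gene flank, and left out each Igf2bp2KO and WT library in turn. The overlap, cluster and background steps were tested on simulated peak lists. Python 3.11.15, pandas 2.3.3, numpy 2.4.6, scipy 1.17.1, Biopython 1.88 and matplotlib 3.10.9 were used.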

Additional observations from a re-analysis of the deposited data

How the results depend on the processing

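The 7 counts were recomputed in 85 alternatives, of which 28 stayed within 1.5 times the count reported. They are given in the order regions, with a peak in Prmt6KO replicate 1, in Prmt6KO replicate 2, with a low peak in WT replicate 1, in WT replicate 2, in clusters, and in genes. As reported they are 36, 31, 34, 30, 7, 28 and 23. At a WT pileup threshold of 7 they were 14, 11, 13, 9, 2, 9 and 8, and at 12 they were 126, 117, 124, 115, 64, 100 and 67. With no WT peak of any height allowed they were 5, 3, 4, 0, 0, 0 and 3, where the WT counts are 0 by construction. With a −log10 q of 1.3 or more asked in Igf2bp2KO replicate 1 they were 3, 3, 3, 3, 0, 0 and 3. With 1 library left out, over both Igf2bp2KO and both WT libraries, they ran from 63 to 272, 56 to 180, 61 to 187, 51 to 184, 34 to 81, 41 to 164 and 34 to 126. When an overlap had to cover at least 50% of the region, low WT replicate 2 peaks fell to 3. With a Prmt6KO pileup of 9 or more, Prmt6KO replicate 1 had 8. With a gap of at most 10 kb, 16 regions were in clusters. The other alternatives, among them peaks taken from Igf2bp2KO replicate 2 (39 regions) and chromosome X added (39 regions), stayed within 1.5 times. The share of regions in the chromosome 5 stretch ran from 20.6% without Igf2bp2KO replicate 1 to 100% with no WT peak allowed. Summits of 8 to 28 fragments and a cutoff that differs between the lists limit what an unlisted peak means. No paired analysis was possible because the counts come from no test and replicate numbers name libraries only.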

Other observations

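The same rule applied to the 116 Igf2bp2KO replicate 1 peaks outside chromosomes 1 to 19, of which 35 were replicated, found 4 more regions. Of these, 3 lay within a short stretch of chromosome X, and 1 on a sequence of chromosome 1 that is not placed in the assembly. The first on X, chrX:31201591-31201843, held 10 and 10 fragments in Igf2bp2KO, 5 and 6 in WT, and 3 and 6 in Prmt6KO. The second, chrX:31207557-31207795, held 11 and 10 in Igf2bp2KO, 0 and 7 in WT, and 5 and 5 in Prmt6KO. The third, chrX:31222411-31222746, held 9 and 9 in Igf2bp2KO, no WT peak, and 6 and 0 in Prmt6KO, and WT replicate 1 had few peaks on X in general, at 0.182 of its density elsewhere. The unplaced region held 11 and 8 in Igf2bp2KO, 7 and 8 in WT, and 8 and 10 in Prmt6KO.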
